A study of Mus musculus with 2 samples.

Results

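The genes of the ATF4 stress response and of serine synthesis were examined in C3H10 cells after knockdown of the long noncoding RNA MALAT1. They were taken by symbol as a named set of 10 genes out of 46095 in the table of read counts, and all 10 had enough counts to be tested: Atf4, Ddit3, Trib3, Sesn2, Asns, Chac1, Phgdh, Psat1, Shmt2 and Mthfd2. C3H10 cells are a line of mouse embryonic mesenchymal precursors that form adipocytes when induced, and the labels give their strain as C57BL/6. The control group was 1 library of cells transfected with a negative control antisense oligonucleotide (ASO NC), and the knockdown group was 1 library from cells that received an ASO directed at MALAT1 (ASO MALAT1). An ASO is a short synthetic strand that pairs with its target RNA and directs its cleavage. Both ASOs were used at 100 nM before confluence, and both cultures were then induced with isobutyl-1-methylxanthine, dexamethasone, troglitazone and insulin, kept in insulin, and collected at day 6 of differentiation. No untransfected culture was analysed here, and which ASO against MALAT1 was sequenced is not given in the sources used here.

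ATF4 is a transcription factor at the centre of the integrated stress response. Kinases that sense a shortage of amino acids, misfolded protein in the endoplasmic reticulum, missing heme or viral RNA phosphorylate the initiation factor eIF2, which slows general translation but favours translation of the Atf4 mRNA. ATF4 protein then raises genes for amino acid import, amino acid synthesis, tRNA charging and, under lasting stress, cell death, and growth signals through mTORC1 also raise ATF4 without stress. The serine pathway leads from a glycolytic intermediate through PHGDH, PSAT1 and PSPH to serine, from which mitochondrial SHMT2 and MTHFD2 pass single carbon units to folate.

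ATF4 binds with a C/EBP partner to a composite element with the letters TGATGNAA. The letters were searched on both strands (TTNCATCA on the gene's own strand for a match on the other) in RefSeq promoters of GRCm38.p6, which run from 250 bases before to 50 bases after the start of a transcript. They were found in 3 of the 10 genes, Trib3, Chac1 and Asns. Of all 27025 genes with a promoter in that table, 4.51% held them. The promoters of these 3 genes and of Mthfd2 are printed 5′ to 3′ on each gene's own strand, because these 4 genes kept the smallest share of their control level. The capitals mark the match. In Trib3 (chr2:152344011-152344310, minus strand) the match began 14 bases after the start, in Chac1 (chr2:119350992-119351291, plus strand) 193 bases before it, and in Asns (chr6:7693160-7693459, minus strand) 23 bases before it. Mthfd2 (chr6:83317555-83317854, minus strand) had no match in its window. This window follows a RefSeq start and lies inside the span of the gene in GENCODE M21 (chr6:83305691-83325908), whose upstream end was not searched. The windows of Psat1 likewise lie inside its GENCODE M21 span.
Trib3: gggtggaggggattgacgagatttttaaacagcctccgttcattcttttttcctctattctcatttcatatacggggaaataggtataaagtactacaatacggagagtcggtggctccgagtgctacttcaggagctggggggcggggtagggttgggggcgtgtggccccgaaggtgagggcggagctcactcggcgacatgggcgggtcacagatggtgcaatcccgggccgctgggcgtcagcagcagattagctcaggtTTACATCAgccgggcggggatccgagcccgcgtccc
Chac1: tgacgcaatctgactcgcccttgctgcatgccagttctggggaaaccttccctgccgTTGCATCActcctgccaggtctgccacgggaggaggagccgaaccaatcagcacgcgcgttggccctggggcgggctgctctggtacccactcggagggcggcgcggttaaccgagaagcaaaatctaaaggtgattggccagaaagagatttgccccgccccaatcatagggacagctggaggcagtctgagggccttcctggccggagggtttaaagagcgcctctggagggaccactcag
Asns: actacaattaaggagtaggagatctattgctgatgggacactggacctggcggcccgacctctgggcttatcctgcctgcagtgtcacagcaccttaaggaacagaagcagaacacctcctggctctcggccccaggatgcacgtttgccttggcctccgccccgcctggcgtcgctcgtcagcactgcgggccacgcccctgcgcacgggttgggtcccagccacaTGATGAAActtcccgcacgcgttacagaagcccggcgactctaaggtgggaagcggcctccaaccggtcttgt
Mthfd2: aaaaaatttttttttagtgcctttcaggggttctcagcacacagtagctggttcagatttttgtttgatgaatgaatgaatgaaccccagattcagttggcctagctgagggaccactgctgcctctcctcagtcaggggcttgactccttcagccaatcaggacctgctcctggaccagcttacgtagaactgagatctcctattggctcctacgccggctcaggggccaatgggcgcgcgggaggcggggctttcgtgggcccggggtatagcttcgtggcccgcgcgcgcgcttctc
A match of letters is a description and not a binding site, and the window of a promoter leaves out introns and distant elements.

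The libraries were deep, with 58147539 counts under ASO NC and 61653549 under ASO MALAT1, and edgeR's TMM scaling factors were 0.992 and 1.01. Malat1 itself had 170402 counts under ASO NC and 45396 under ASO MALAT1, or 24.7% of the control level (log2FC -2.01). Every gene that reached 10 counts in the libraries together, 17356 in all, was put through an exact binomial test (two-sided) on its counts, with Benjamini-Hochberg adjustment over all of them. With 1 library in each group there is no replicate check: this test compares the libraries and not the conditions, and the Clopper-Pearson intervals given here cover counting error only. Fold changes are given as log2FC, the log2 of the knockdown level over the control level, with their 95% confidence interval (CI). Calls needed an adjusted p under 0.05 together with a difference of at least 2-fold or, more loosely, 1.5-fold. In RNA from whole cultures, fewer cells of a type and less RNA per cell cannot be told apart.

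All 10 genes had lower TMM-scaled counts per 1000000 (CPM) in MALAT1-knockdown cells, which held between 42.1% and 92.0% of the control level. Their median log2FC was -0.41, where the median of all genes tested was 0.00, and the set summed to 1122 CPM in control cells and 874 CPM in MALAT1-knockdown cells. Trib3 was called lower at 2-fold, and Trib3, Chac1, Mthfd2 and Asns at 1.5-fold. The background was 4.09% of genes tested called lower at 2-fold and 7.27% at 1.5-fold, and 2.18% and 4.37% called higher. Without a fold threshold, 10 of the 10 genes were lower at an adjusted p under 0.05 in the exact binomial test (2.98e-137 for Mthfd2 to 2.11e-05 for Phgdh), against 23.8% of genes tested lower and 24.2% higher. Of the 10 genes, 9 had a mean of at least 1000 counts; among the 8251 genes counted that deeply, 2.84% were called lower at 1.5-fold and 30.1% were lower at an adjusted p under 0.05. The difference was not even within the set: the stress regulators and Asns, Chac1 and Mthfd2 lay between -0.39 and -1.25, and Phgdh, Psat1 and Shmt2 between -0.12 and -0.20. With edgeR's exact test and a preset biological coefficient of variation of 0.2, 0 of the 10 genes were called at either threshold, and 1, Trib3, had an unadjusted p under 0.05 (p = 0.00306 from edgeR's exact test).

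**Figure D1:**
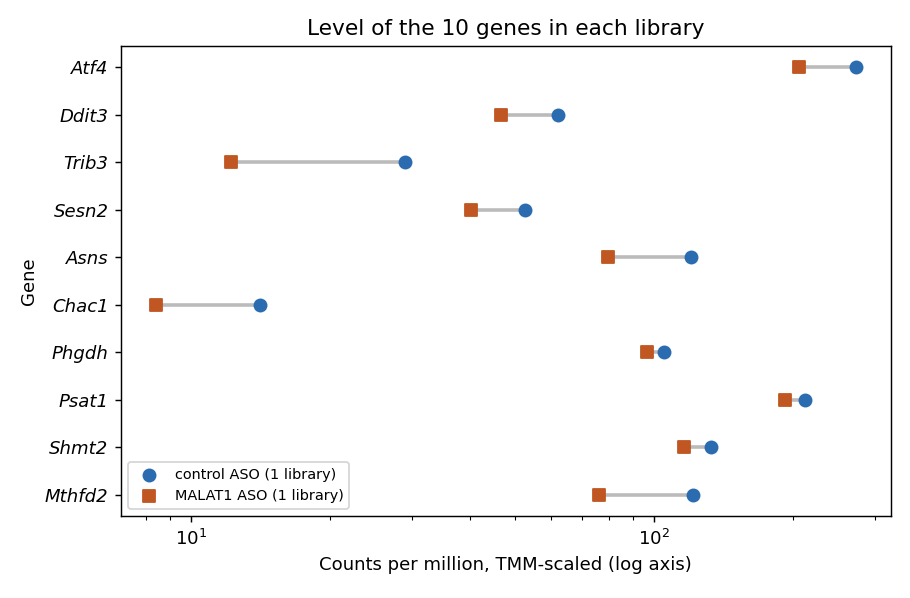
TMM-scaled CPM (log axis) of each of the 10 genes in the control library (circles) and the MALAT1-knockdown library (squares). Every square lies to the left of its circle, with the widest gap at Trib3 (29.0 and 12.2 CPM) and the narrowest at Phgdh (105 and 96.6 CPM).

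**Figure D2:**
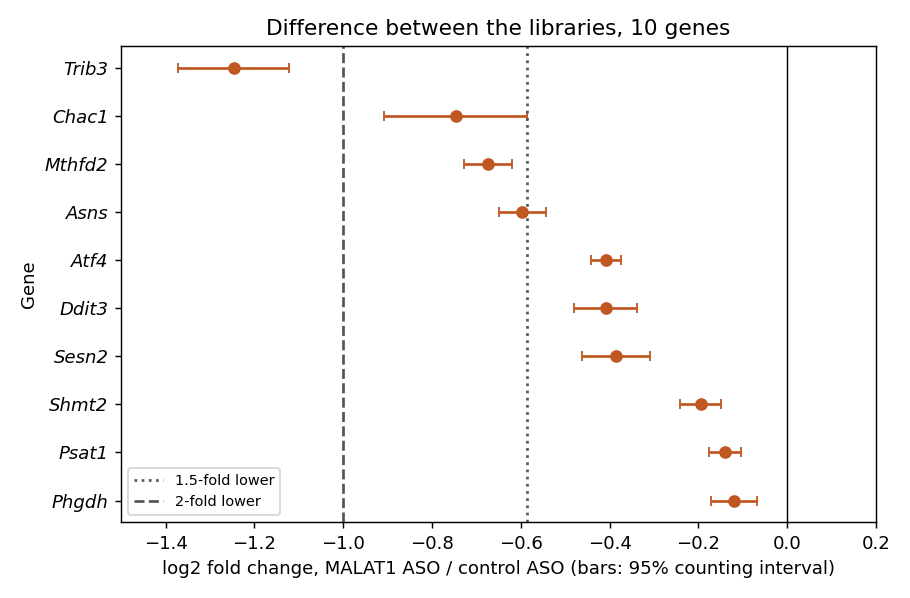
log2FC of each gene, ordered by size, with 95% intervals for counting error, and lines at 1.5-fold and 2-fold lower. Trib3 lies beyond the 2-fold line, Chac1 and Mthfd2 beyond the 1.5-fold line, Asns at that line, and Phgdh nearest to 0.

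Positions of the genes are from GENCODE M21. The regulators were led by Trib3. Atf4 (chr15:80255184-80257541 of GRCm38, plus strand) had 15744 counts under ASO NC and 12772 under ASO MALAT1, or 273 and 206 CPM. Its log2FC was -0.41 (95% CI -0.44 to -0.37), so that 75.3% of the control level was left. Counts of Atf4 mRNA do not show the amount of ATF4 protein, which is set largely by translation. Ddit3, which encodes the proapoptotic factor CHOP, spans chr10:127290774-127296288, plus strand. It had 3580 and 2904 counts, also a log2FC of -0.41 (95% CI -0.48 to -0.34), and the ratio of Ddit3 to Atf4 counts was 0.227 in both libraries. Exons of Ddit3 share 68 bases with those of Mars on the opposite strand, and whether the counting used strand is not given in the sources used here.

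Trib3 encodes a pseudokinase that ATF4 and CHOP induce and that restrains both ATF4 and the kinase AKT. It spans chr2:152337422-152344032, minus strand. Trib3 had 1671 counts under ASO NC and 758 under ASO MALAT1, which left 42.1% of the control level. Its log2FC of -1.25 (95% CI -1.37 to -1.12) had 4.09% of all genes tested below it, and 0.327% of the genes with a mean of at least 1000 counts. Relative to Atf4, the counts of Trib3 went from 0.106 to 0.0593, a log2 change of the ratio of -0.84 (95% CI -0.97 to -0.71). Such ratios within a library do not depend on how the libraries are scaled; 8 of them were computed, for pairs chosen after the values were seen. Sesn2, whose product is a leucine sensor that restrains mTORC1, spans chr4:132492032-132510501, minus strand. It had 3040 and 2506 counts, giving a log2FC of -0.39 (95% CI -0.46 to -0.31), and was next to Atf4 and Ddit3 in size of difference.

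Among the effector enzymes outside the serine pathway, Asns and Chac1 were both called lower at 1.5-fold. Asns, the enzyme that makes asparagine, spans chr6:7675169-7693254, minus strand. Its counts were 6941 and 4942, or 120 and 79.5 CPM. The log2FC of -0.60 (95% CI -0.65 to -0.54) sat at the 1.5-fold line of -0.585 and moved to -0.57 when libraries were scaled by their totals, which ends this call. Chac1, an enzyme that breaks down glutathione, spans chr2:119351229-119354381, plus strand. It was the least counted of the set, with 813 counts under ASO NC and 522 under ASO MALAT1, and its log2FC of -0.75 had the widest interval (95% CI -0.91 to -0.59). Relative to Atf4, the log2 change of the ratio was -0.34 for Chac1 (95% CI -0.50 to -0.17) and -0.19 for Asns (95% CI -0.25 to -0.13).

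The first enzymes of serine synthesis differed little between the libraries. Phgdh, which catalyses the first step, spans chr3:98313170-98339990, minus strand, and had 6057 counts under ASO NC and 6000 under ASO MALAT1. After scaling, its log2FC was -0.12 (95% CI -0.17 to -0.07). Below it lay 33.9% of all genes tested and 23.5% of the genes with a mean of at least 1000 counts. Phgdh has 13 processed pseudogenes in GENCODE M21 with at least 95% identity over at least 200 bases, so its reads may be split with them. One of these copies, Gm7901, had 580 and 479 counts, and with 12 copies found in the table added the log2FC was -0.14. Psat1, the aminotransferase of the next step, spans chr19:15904678-15947337, minus strand. It had 12225 and 11947 counts, or 212 and 192 CPM, giving a log2FC of -0.14 (95% CI -0.18 to -0.10). The ratio of Psat1 to Phgdh counts was 2.02 under ASO NC and 1.99 under ASO MALAT1, and the interval of its log2 change held 0 (-0.08 to 0.04).

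The mitochondrial enzymes of the pathway parted. Shmt2, which splits serine into glycine and a folate-bound carbon unit, spans chr10:127517123-127522444, minus strand. It had 7666 counts under ASO NC and 7210 under ASO MALAT1, giving a log2FC of -0.20 (95% CI -0.24 to -0.15). Exons of Shmt2 share 32 bases with those of Ndufa4l2 on the opposite strand, which had 17 and 7 counts. Mthfd2, which oxidises the carbon unit on folate, spans chr6:83305691-83325908, minus strand. It had 7025 and 4741 counts, or 122 and 76.3 CPM, giving a log2FC of -0.67 (95% CI -0.73 to -0.62) that left 62.7% of the control level. The libraries held 0.916 counts of Mthfd2 for each count of Shmt2 under ASO NC and 0.658 under ASO MALAT1, a log2 change of the ratio of -0.48 (95% CI -0.55 to -0.41).

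**Figure D3:**
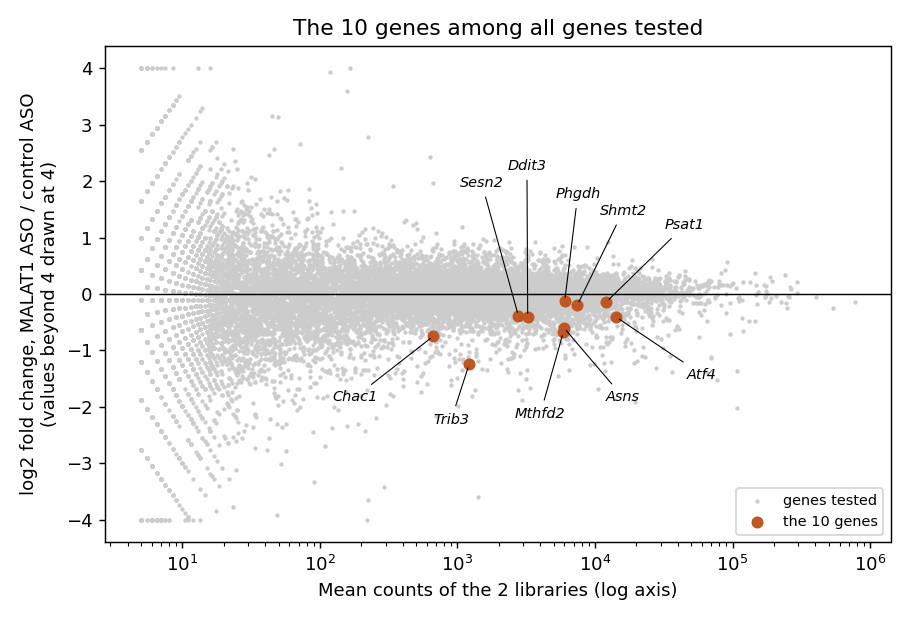
log2FC against the mean counts of the libraries (log axis) for all genes tested (grey) and the 10 genes (labelled). Trib3 lies near the lower edge of the genes counted as deeply as it was, with Chac1, Mthfd2 and Asns above it among other lower genes, and Phgdh, Psat1 and Shmt2 within the band around 0.

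Levels were set beside each other as CPM per kb of the longest GENCODE M21 transcript. In control cells Atf4 stood highest at 135 CPM per kb, followed by Psat1 at 81.0 and Ddit3 at 64.0. Asns, Mthfd2, Shmt2 and Phgdh came next between 59.7 and 55.4 CPM per kb, and the counting interval of each overlapped that of its neighbour in this order. Sesn2 at 15.2 and Trib3 at 14.3 CPM per kb also overlapped, and Chac1 was lowest at 8.61. In MALAT1-knockdown cells Atf4 (102 CPM per kb) and Psat1 (73.5 CPM per kb) again stood highest. Phgdh at 51.0 and Shmt2 at 50.7 CPM per kb now overlapped with each other and with Ddit3 at 48.2, and lay above Asns at 39.5 and Mthfd2 at 36.6, whose intervals did not overlap with those of Phgdh and Shmt2. The transcript in use in these cells was not measured, so the order of levels depends on the annotated lengths.

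Other genes of serine, glycine and folate metabolism did not move as a block. Of 22 genes in a hand-written list 21 were tested, with a median log2FC of -0.04. At 1.5-fold 5 were called lower, against 7.27% of all genes tested. The 1 gene called higher was Gldc, with 51 and 88 counts, where 4.37% of all genes tested were called higher. Aldh1l1, the cytosolic formyl-folate dehydrogenase, had 1798 counts under ASO NC and 942 under ASO MALAT1, giving a log2FC of -1.04 (95% CI -1.15 to -0.92). Its mitochondrial relative Aldh1l2, also known as an ATF4 target, had 4947 and 3185 counts, giving a log2FC of -0.74 (95% CI -0.81 to -0.68). Gcsh and Dld, subunits of the glycine cleavage system, had log2FC values of -0.60 and -0.62, and that of Gcsh was -0.58, short of the 1.5-fold line, with library totals. The subunits of this system did not go together: Gldc was at 0.67 and Amt, with 374 and 397 counts, at -0.02. Psph, the last enzyme of serine synthesis and chosen for mention after its value was seen, was the other gene called lower. It had 1266 and 880 counts, giving a log2FC of -0.63 (95% CI -0.76 to -0.51), and its ratio to Phgdh counts went from 0.209 to 0.147.

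Known ATF4 targets outside the set were mostly lower. Of 24 such genes tested, 21 had a log2FC below 0, where 50.4% of all genes tested did, and the median was -0.25. At 1.5-fold 6 were called lower and 0 higher, against 7.27% and 4.37% of all genes tested. Of these 6, 2 (Cth and Fgf21) were called at 2-fold, where 4.09% of all genes tested were called lower. Nupr1, a small stress-induced chromatin protein, had 6773 counts under ASO NC and 4159 under ASO MALAT1, giving a log2FC of -0.81 (95% CI -0.87 to -0.75). Gpt2, the mitochondrial alanine aminotransferase, had 8735 and 4804 counts, giving a log2FC of -0.97 (95% CI -1.02 to -0.92). Cth, which makes cysteine from cystathionine, had 330 and 163 counts, giving a log2FC of -1.12 (95% CI -1.40 to -0.85). Fgf21, a secreted hormone, was at 21 counts and 1 count, and the 95% CI of its log2FC, for counting error only, ran from -9.87 to -1.86. The remaining genes called lower were the transcription factors Atf3 (366 and 220 counts) and Atf5 (12429 and 7925 counts), named after their values were seen. Cebpb, a partner of ATF4 in adipocyte precursors and likewise named afterwards, had a log2FC of -0.06. Above 0 lay 3 genes: Gdf15 with 6 and 15 counts, Cbs with 11 and 21, and Tnfrsf10b with 1272 and 1525.

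Amino acid transporters under ATF4 were mixed. Of 12 tested, 4 were called lower and 1 higher at 1.5-fold, against 7.27% and 4.37% of all genes tested. Their median log2FC was -0.19, with 8 below 0 and 4 above. Slc1a5, a glutamine transporter, had 7091 and 4188 counts, giving a log2FC of -0.87 (95% CI -0.92 to -0.81). Slc7a5, the light chain of the large neutral amino acid exchanger, had 3927 and 2630 counts, giving a log2FC of -0.68. Slc6a9, a glycine transporter, had a log2FC of -0.63, and Slc43a1, with 115 and 69 counts, one of -0.84. The gene called higher was Slc38a1, with 144 and 251 counts. Slc38a2, the best counted of the 12, had 21765 and 26583 counts, giving a log2FC of 0.18.

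Cytosolic aminoacyl-tRNA synthetases, which charge tRNAs with amino acids, were lower by small amounts where they are listed as ATF4 targets. All 12 synthetases listed as ATF4 targets had a log2FC below 0 and an adjusted p under 0.05 in the exact binomial test. At that adjusted p, 23.8% of all genes tested were lower, and 30.1% of those with a mean of at least 1000 counts. The median of the 12 was -0.24, with a range from -0.42 to -0.11, and none of them was called at 1.5-fold. Eprs had 18387 counts under ASO NC and 15225 under ASO MALAT1, giving a log2FC of -0.38, and Aars 17036 and 14488 counts, one of -0.34. Of 8 synthetases outside that list, 4 lay below 0 and 4 above, with a median of 0.01, 1 lower and 2 higher at an adjusted p under 0.05. Kars had 8753 and 9798 counts, giving a log2FC of 0.06, and Dars 6883 and 6952 counts, one of -0.09. Dars, lower at an adjusted p of 0.000595 in the exact binomial test, lay close to the least lowered gene of the first list, Tars at -0.11, and their counting intervals overlapped. The assignment of synthetases to ATF4 came from general knowledge, with earlier results of these data known, and the difference between the lists was not tested.

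**Figure D4:**
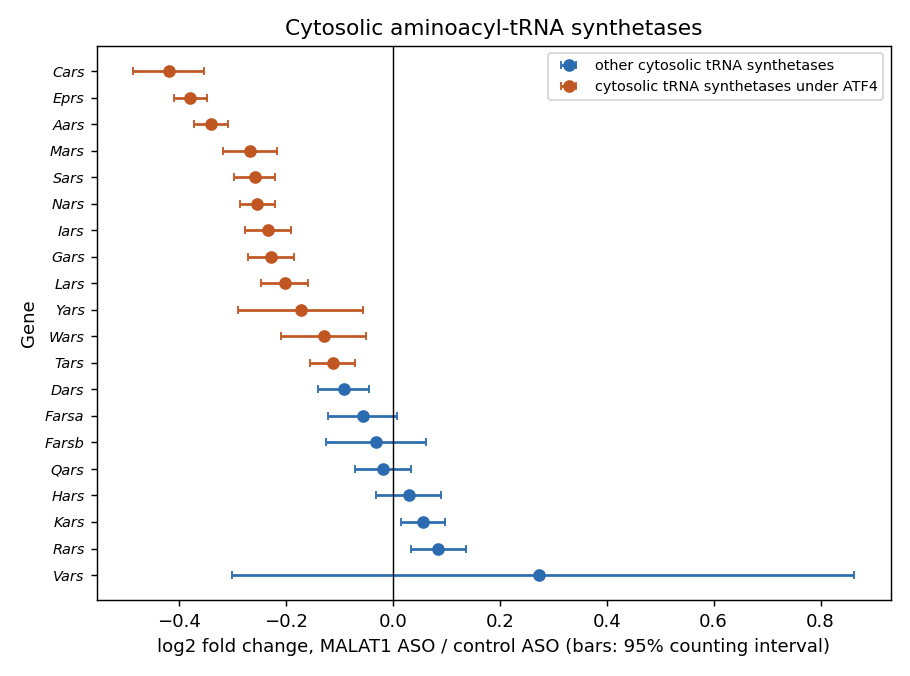
log2FC of 20 cytosolic aminoacyl-tRNA synthetases with 95% intervals for counting error, 12 listed as ATF4 targets and 8 others. The 12 lie between -0.42 and -0.11 and the other 8 between -0.09 and 0.27, where Vars, with 46 and 60 counts, has the widest interval.

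The letters TGATGNAA occurred in the promoters of 5 of the 8 listed ATF4-target synthetases found in the promoter table, of 8 of 22 other ATF4 targets and of 2 of 8 transporters. They occurred in 0 of 5 other synthetases, 0 of 17 other serine and folate genes and 0 of 11 adipocyte markers. Among genes tested here that are in the table the share was 3.07%. Lists of ATF4 targets hold genes that were studied for this element, so these counts are no independent result.

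A list around the eIF2 signal held 18 genes, with a median log2FC of -0.01. It covers eIF2 kinases, eIF2, its exchange factor eIF2B, the phosphatase that reverses the signal, and related genes. By the exact binomial test 0 were called at 1.5-fold, where 7.27% of all genes tested were called lower and 4.37% higher. A list of 18 genes is too short for 0 calls to set it apart from those shares. At an adjusted p under 0.05 in that test, 5 were lower and 6 higher, against 23.8% and 24.2% of all genes tested. Eif2ak2, the kinase PKR that senses viral RNA and is itself an interferon-stimulated gene, had 7287 and 9360 counts, giving a log2FC of 0.25 (95% CI 0.21 to 0.30). Ppp1r15b, a subunit of the phosphatase, had 10817 and 9496 counts, giving a log2FC of -0.29. Its stress-induced counterpart Ppp1r15a, named after its value was seen and also an ATF4 target, was at -0.44. The phosphorylation of eIF2 was not measured.

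Chaperones of the endoplasmic reticulum were mostly higher, by small amounts. The list for the ATF6 and XBP1 branches of the unfolded protein response had a median log2FC of 0.14. Of its 21 genes tested, 14 were higher and 6 lower at an adjusted p under 0.05 in the exact binomial test. Among all genes tested these shares were 24.2% and 23.8%. Calr, a calcium-binding chaperone, had 70961 and 89341 counts, giving a log2FC of 0.23 (95% CI 0.21 to 0.24). Hspa5, the chaperone BiP, named after its value was seen, had 34689 and 46498 counts, giving a log2FC of 0.32. The exception called at 1.5-fold was Dnajb9, a cochaperone of BiP, with 7847 and 5144 counts and a log2FC of -0.72. Xbp1 itself, also named afterwards, was at -0.41. Mitochondrial chaperones and proteases had a median of -0.37, with 9 of 11 below 0, where 50.4% of all genes tested were. At 1.5-fold 0 of these 11 were called, against 7.27% of all genes tested lower and 4.37% higher. With 11 genes, 0 calls cannot set the list apart from those shares. By adjusted p under 0.05 in the exact binomial test, 9 were lower and 2 higher, against 23.8% and 24.2% of all genes tested. Hspa9, the chaperone that pulls proteins into the matrix, was at -0.58 with 45665 and 32975 counts, and Hspd1 at -0.32.

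A further list joined paralogs of Trib3, Sesn2 and Chac1 with regulators of mTORC1, 14 genes with a median log2FC of -0.01. By the exact binomial test 0 were called at 1.5-fold, where 7.27% of all genes tested were called lower and 4.37% higher. A list of 14 genes is too short for 0 calls to set it apart from those shares. At an adjusted p under 0.05 in that test, 3 were lower and 2 higher, against 23.8% and 24.2% of all genes tested. Trib2, a paralog of Trib3, had 8697 and 11787 counts, giving a log2FC of 0.33 (95% CI 0.29 to 0.37). Sesn1, a p53-regulated paralog of Sesn2, had 9771 and 10376 counts, giving a log2FC of -0.02 whose interval held 0. Chac2, the paralog of Chac1, named after its value was seen, had a log2FC of 0.03. Among 10 genes of glutathione metabolism the median was -0.12 and 0 were called at 1.5-fold, against the same shares of 7.27% lower and 4.37% higher. These 10 genes are likewise too few for 0 calls to set them apart. Gclc, the catalytic subunit of the first enzyme of glutathione synthesis, was at 0.54 with 10575 and 16517 counts, and Gpx4, which reduces lipid peroxides, at -0.37.

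**Figure D5:**
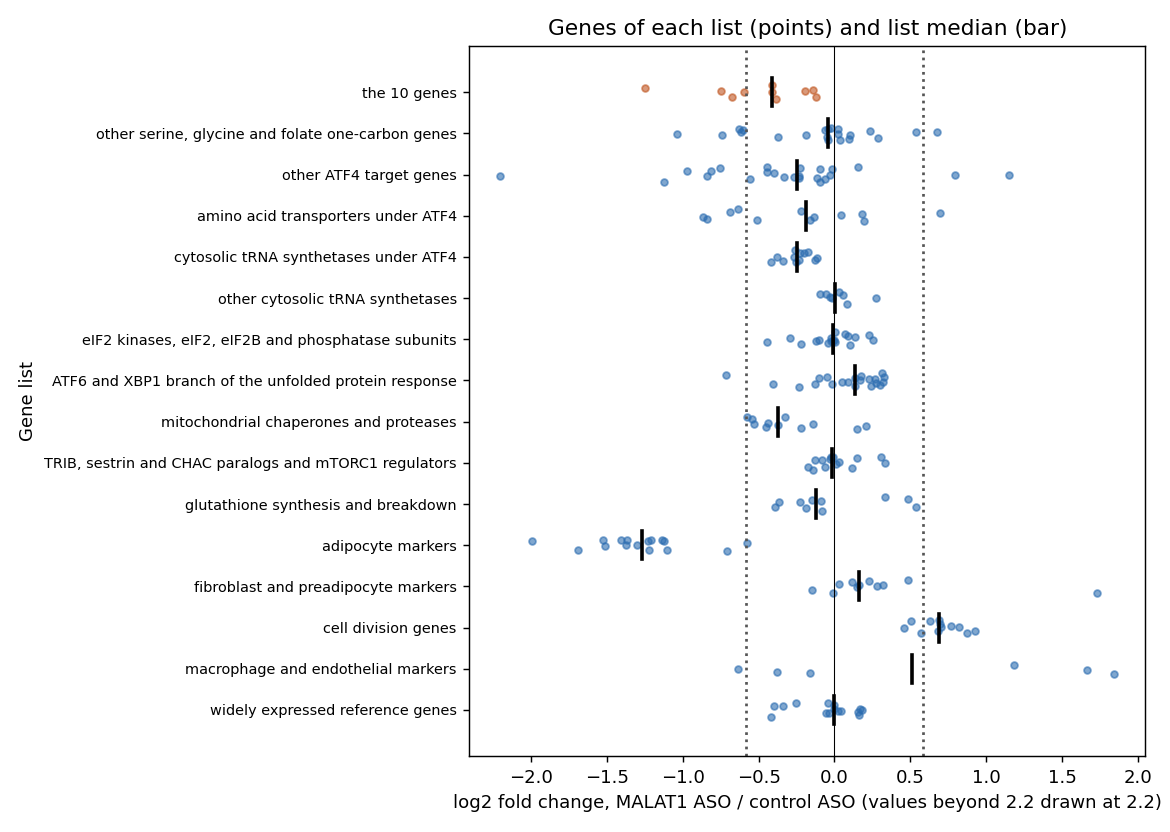
log2FC of each gene (points) and the median (bar) of the 10 genes and 15 other lists, with dotted lines at 1.5-fold in either direction. The medians run from -1.27 for adipocyte markers to 0.69 for cell division genes, with the 10 genes at -0.41.

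Markers of adipocytes and genes of cell division differed between the same libraries. Of 16 adipocyte markers, 16 had a log2FC below 0, where 50.4% of all genes tested did. At 2-fold 14 were called lower, against 4.09% of all genes tested. Their median was -1.27, and their summed level went from 10795 CPM in control cells to 4402 CPM in MALAT1-knockdown cells. Scd1, a fatty acid desaturase, was at -1.53 and Cfd, the adipokine adipsin, at -1.69; Retn, another adipokine, was at -1.99, and Acacb, an acetyl-CoA carboxylase, at -1.51. Pparg, named after its value was seen, was the least lowered of the 16 at -0.57, short of the 1.5-fold line. The summed level of 12 cell division genes went from 964 to 1481 CPM. At 1.5-fold 9 of the 12 were called higher, against 4.37% of all genes tested. Among these, Mcm5 and Mcm3, subunits of the replicative helicase, were at 0.93 and 0.82, and the mitotic kinases Bub1 and Plk1 at 0.87 and 0.76. The fibroblast and preadipocyte markers summed to 17210 and 18610 CPM, with a median of 0.16 over 11 genes tested, and Dlk1 was at 0 in both libraries. Fn1, the best counted of them, was at 0.03, and Cd34 was called higher with 19 and 69 counts. Macrophage and endothelial markers summed to 4.21 and 3.75 CPM, and Ptprc and Adgre1, which define leukocytes and macrophages, were at 0 in both libraries; Cd68 had 172 and 119 counts, Lyz2 7 and 25, and Vwf 12 and 30. Widely expressed reference genes had a median of -0.01, with Eef1a1 at -0.05 and Actb at 0.18. The part of a different share of adipocytes or dividing cells in the lower counts of the 10 genes was not tested.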

How the data were processed

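RNA from 1 control and 1 MALAT1-knockdown culture was sequenced after removal of rRNA with a directional kit. The authors deposited whole-number counts of reads per gene symbol, without normalization. The submitters' processing notes name HISAT2 and GRCm38; the counter, its strand setting and the annotation are not given in the sources used here. Libraries were scaled by TMM (edgeR 4.0.16, R 4.3.3), with a prior count of 0.5 in the log2 fold change. Tests were exact binomial tests across all genes (scipy 1.17.1, Python 3.11.15), with p as 2 times the smaller tail, since edgeR's quasi-likelihood test needs replicates. The test was run on simulated counts that held counting error only, which checks the computation and not the spread between cultures. Alternatives were other scalings (DESeq2 1.42.0 among them), filters, prior counts and edgeR's exact test with preset dispersions. Positions and lengths came from GENCODE M21 (88.3% of genes tested have a length), and copies from BLAST+ 2.17.0. The 10 genes and the 15 other hand-written lists were chosen with earlier results of these data known. The text names all 10 genes and, from each other list, up to 4 genes past 1.5-fold with intervals farthest from 0, or the best counted; every other gene named was picked after its values were seen. The paper's qPCR, immunoblot, reporter and patient data were not analysed here.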

Additional observations from a re-analysis of the deposited data

How the results depend on the processing

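Trib3 stayed called at 2-fold under each other scaling, filter and prior count, and with unadjusted p. The median of the 10 genes ranged from -0.41 to -0.39 over those settings, and that of all genes tested from -0.01 to 0.02. A preset coefficient of variation of 0.1 in edgeR's exact test left 3 genes past 1.5-fold (Trib3, Chac1 and Mthfd2). With 0.2 or 0.4, 0 were called at 2-fold and 0 at 1.5-fold, and 1 and 0 genes had an unadjusted p under 0.05. With the common dispersion of both libraries as one group, a coefficient of variation of 0.171, only Trib3 was called, 1 gene at either threshold. Library totals took Asns to -0.57 and Gcsh to -0.58, short of the 1.5-fold line, and turned Sesn1 to 0.0022. No leave-one-out fit can be made with 1 library per group. No paired analysis was possible because each group has 1 library. The spread between cultures was not measured, and low counts leave wide intervals for Fgf21, Slc43a1 and Vars.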
